A study of Drosophila melanogaster with 8 samples.

Results

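The genes described here are 96 noncoding RNA genes of the fly Drosophila melanogaster that were seen in both adult muscle and adult whole flies. They were chosen by measured level. An entry with a noncoding RNA biotype had to reach 1 FPKM (reads per kilobase of gene, scaled for each library) in at least 2 of the 4 libraries of each tissue. The genes roX1 and roX2 were left out. There were 2539 such entries for muscle and 2043 for whole flies, and 170 and 269 of them reached that level. Of 2025 pairs matched between the tables, 96 passed in both, 45 in muscle only and 168 in whole flies only. Just outside the threshold lay CR44283, whose second-highest FPKM was 0.999 in muscle, and just inside lay CR45585, at 1.01 in whole flies. The whole-fly table keeps 502 antisense RNA genes under a biotype of their own, which the choice does not cover.

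The 8 libraries form 4 groups of 2: wildtype muscle, mutant muscle, wildtype whole fly and mutant whole fly. The mutant lacks anw through a knockout, and the title of the series counts that gene with splicing regulators. Stocks were kept at 25 °C, and mRNA libraries were made from 1.3 µg of total RNA. The labels give neither the allele, the age, the sex nor the number of flies. Nor do they say that repeats came from separate animals, so every p-value reflects the spread of these libraries alone, and that spread may be technical. No table pairs anw with a gene, so RNA of the knocked-out gene could not serve as a check of the labels. Libraries held 18580751 to 22210197 assigned reads.

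Noncoding RNAs of this kind are thought to act as RNA and not through a protein. A few are well understood. The Uhg genes are spliced host genes whose introns release small nucleolar RNAs (snoRNAs), guides for chemical modification of ribosomal RNA, while the spliced exons are a by-product. Hsromega, the heat shock locus at 93D, makes nuclear RNAs that organise omega speckles, stores of RNA-binding hnRNP proteins. Hairpin RNAs (hpRNA) fold back on themselves and are cut by Dicer-2 into endogenous siRNAs. The genes named by a CR number are mostly without a known function.

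The 96 genes comprised 81 with a CR number, 6 Uhg genes, 3 hairpin RNAs, 2 stable intronic sequence RNAs (sisRNA), 2 small non-messenger RNAs (snmRNA), Hsromega and noe. The label "long" held for 94 of them at a limit of 200 bases. The exceptions were snmRNA:254, of 31 bases in eEF2, the gene of a translation elongation factor, and snmRNA:157, of 43 bases in CG5646. Both rested on 7 reads or fewer in every library. The median length was 728 bases, against 659 for the other noncoding entries of the muscle table, and 37 genes had a single exon. The X chromosome carried 23 of the 96 (24.0%), against 12.3% of all noncoding entries in the muscle table, and arm 2L carried 15 (15.6%, against 25.3%). Shares were not taken over the entries that passed the filter. Of the 23 on X, 8 are in a set, described below, that had the library order of testis marker genes in muscle.

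A protein-coding gene was overlapped by 49 of the 96, 20 of them on the same strand and 31 on the other. Exon bases were shared by 17, and CR42491 shared 50.5% of its exon bases with RpL22, a ribosomal protein gene. Whether reads were counted by strand is not given in the sources used here, so reads of overlapping genes cannot be told apart. The other 47 overlapped no coding gene.

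Most of these RNAs were scarce. The median of the wildtype means was 2.60 FPKM in muscle and 3.42 FPKM in whole flies, and 65 and 57 genes lay under 5 FPKM. The tables were scaled separately, so levels were not compared between tissues. In muscle CR31781 (2L, 16869346 to 16878300) and CR42862 (3L, 224106 to 230964) stood far above the rest, at 250 and 283 FPKM and at 238 and 237 FPKM in wildtype. In whole flies CR42862, at 156 and 152 FPKM, and CR34335, at 114.6 and 115.3 FPKM, were the most abundant.

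The first question was which of the 96 differed between mutant and wildtype whole flies. The snoRNA host Uhg5 had the largest fall and CR42861 the largest rise, and CR46350 had reads in wildtype and none in mutant. By limma on log2(FPKM + 1) with Benjamini-Hochberg adjustment over all entries, 34 of the 96 were called at 0.05, 17 higher and 17 lower in mutant. That is 35.4% of the genes, against 20.8% of all 11419 entries tested, where 9.94% were higher and 10.8% lower. The other 173 noncoding entries of the whole-fly table that passed the filter had 58 called (33.5%), 14 higher and 44 lower.

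The median difference was -0.07 over the 96 and 0.02 over all entries (log2). An unadjusted p under 0.05 was seen for 49 of the 96 (51.0%, against 36.4% of all entries), and the groups did not overlap for 66 (68.8%, against 66.0%). Of the 34 called genes, 19 overlapped no coding gene. There were 8 genes that passed the filter through 1 genotype only, which favours a difference, and 5 of them were called. Among the other 88, 29 were called (33.0%). The count fell without wildtype library 1, as did the count over all entries. It fell to 15 with the spread shared over the 8 libraries of both tissues, where 5.75% of 9454 entries were called. Under 8 alternatives per gene, which leave out that setting, 16 kept their call, namely CR32661, CR42861, CR43452, CR43461, CR43496, CR44138, CR44644, CR44756, CR44922, CR45625, CR46350, CR9284, Uhg1, Uhg5, Uhg8 and noe. The other 18 lost it under at least 1 of the 8. With the shared spread 12 of the 16 were called, and CR32661, CR43496, CR9284 and noe were not. In that order, their standard errors (log2) were 1.68, 0.24, 2.12 and 0.21 in muscle fitted alone. In whole flies fitted alone they were 0.16, 0.16, 0.12 and 0.18. The part of the muscle spread in these lost calls was not tested.

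**Figure D1:**
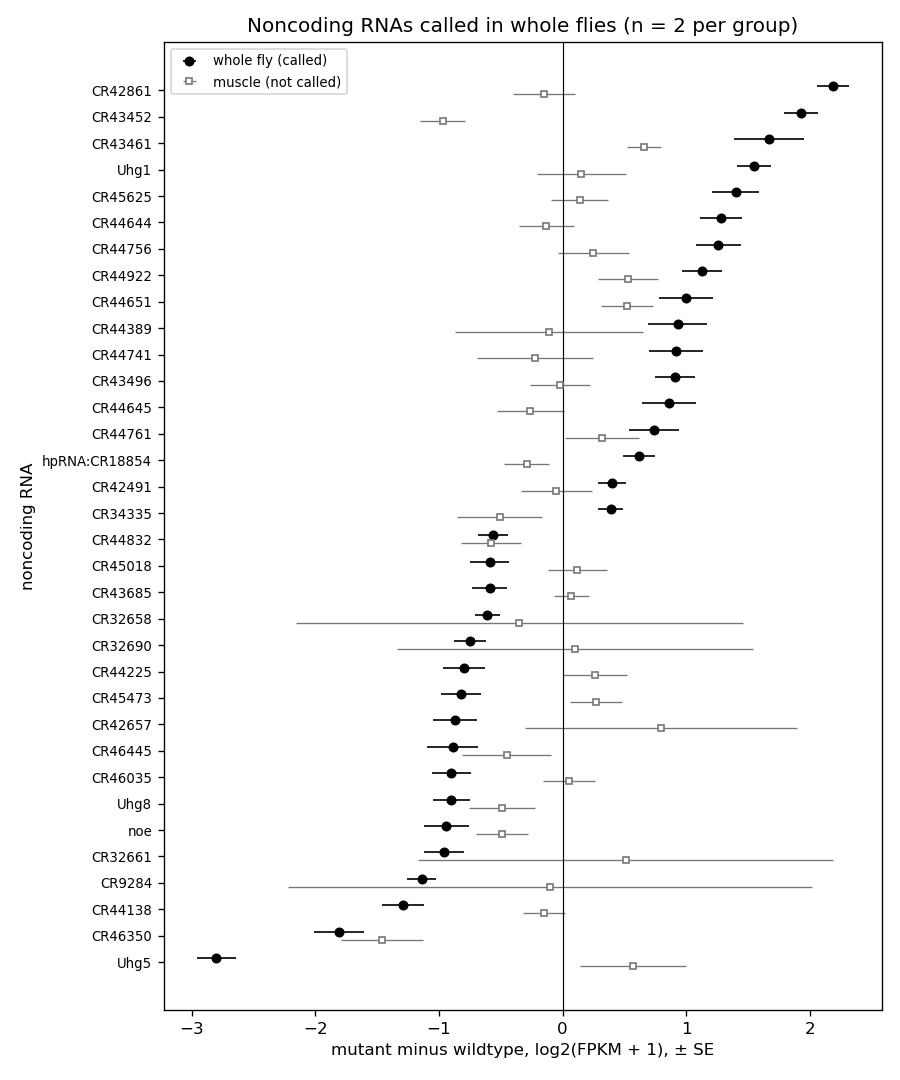
Difference between mutant and wildtype on the log2(FPKM + 1) scale, with its standard error, for the 34 genes called in whole flies (black circles, n = 2 per group) and the same genes in muscle (open squares, n = 2 per group). Uhg5 has the lowest whole-fly value at -2.80 and CR42861 the highest at 2.19, and the widest muscle errors belong to CR9284, CR32658, CR32661 and CR32690.

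The whole-fly samples also differed in the RNA of other cell types. Muscle markers summed to 4448 and 3852 FPKM in wildtype against 9984 and 9232 in mutant, with 15 of 18 called higher and none at 0. Ovary and eggshell markers summed to 5150 and 4732 FPKM against 10910 and 8188, with 7 of 12 tested called higher. Gut markers summed to 19570 and 18370 FPKM against 11250 and 11230, with 9 of 13 lower and 4 higher. Testis markers summed to 851 and 951 FPKM against 667 and 653, with 3 of 13 tested called lower. Malpighian tubule markers summed to 117.3 and 106.5 FPKM against 70.8 and 65.9, with 2 of 4 called lower. Called higher were 2 of 8 tested hemocyte, 2 of 4 yolk and female fat body and 1 of 5 tested male accessory gland markers. Of 10 neuron markers 0 were called. Of 8 tested antimicrobial peptide genes 4 were called lower (median -1.54). Of 6 fat body markers 3 were called higher and 1 lower (median 1.6), but their sums overlapped, at 413.9 and 361.5 FPKM against 320.6 and 444.6. The part of these shifts in the differences below was not tested, and in such samples fewer cells of a type and less RNA per cell cannot be told apart.

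The snoRNA hosts changed in both directions. Uhg5 (2R, 14621601 to 14624498, 12 exons, 11 snoRNAs in its introns) stood at 12.3 and 12.7 FPKM in wildtype whole flies and at 0.715 and 1.19 in mutant. The reads behind these values were 196 and 215 against 12 and 19, and the groups lay far apart. The difference was -2.80 ± 0.16 (log2, SE, limma adjusted p = 7.38e-05). In muscle Uhg5 had 1.80 and 0.843 FPKM in wildtype against 1.47 and 3.59 in mutant, and those groups overlapped. Its nearest coding gene, CG12863, 281 bases away, had a whole-fly difference of -0.06 (limma adjusted p = 0.78).

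Uhg1 (2R, 17699097 to 17703344, 18 exons, 16 snoRNAs) rose. It had 4.57 and 3.67 FPKM in wildtype whole flies and 13.5 and 14.4 in mutant, from 96 and 82 reads against 298 and 303. The difference was 1.55 ± 0.14 (log2, SE, limma adjusted p = 0.000439). In muscle its groups overlapped, at 7.25 and 4.98 FPKM against 4.82 and 9.41. Both coding genes on its other strand, CG46315 and CG6424, lay under 1 FPKM in every library.

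Uhg8 fell in whole flies, from 7.35 and 5.97 FPKM to 3.01 and 3.15 (-0.90 ± 0.15, log2, SE, limma adjusted p = 0.00604). In muscle it had 2.08 and 1.57 FPKM in wildtype against 0.797 and 1.22 in mutant, apart in the same direction but not called. Uhg3 had 0.969 and 1.199 FPKM against 2.07 and 2.05 in whole flies and missed the threshold (limma adjusted p = 0.0557). Uhg4, the most abundant of the family in both tissues, had 31.8 and 29.2 FPKM against 32.5 and 31.7 in whole flies, a difference of 0.07 ± 0.10. Uhg2 had a difference of 0.35 ± 0.22 and overlapping groups.

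Of the 6 hosts, whole flies thus had 1 called higher and 2 lower, with a median of 0.21, beside 20.8% called over all entries. The snoRNAs inside Uhg5 and Uhg1 were hardly captured: the entries inside Uhg5 summed to 9 and 3 reads in wildtype whole flies and to 3 and 0 in mutant, and those inside Uhg1 to 2 and 5 against 2 and 4. A difference in them was therefore not detectable at this depth with these mRNA libraries. CR42491 holds 1 snoRNA, which had 54 and 51 reads in wildtype whole flies and 60 and 51 in mutant. CR42491 itself had 18.0 and 17.1 FPKM against 24.9 and 22.2 in whole flies (0.40 ± 0.11, log2, SE, limma adjusted p = 0.0429). That call was lost without either wildtype library, without mutant library 1, by limma-voom, under quantile scaling and with a replicate block.

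**Figure D2:**
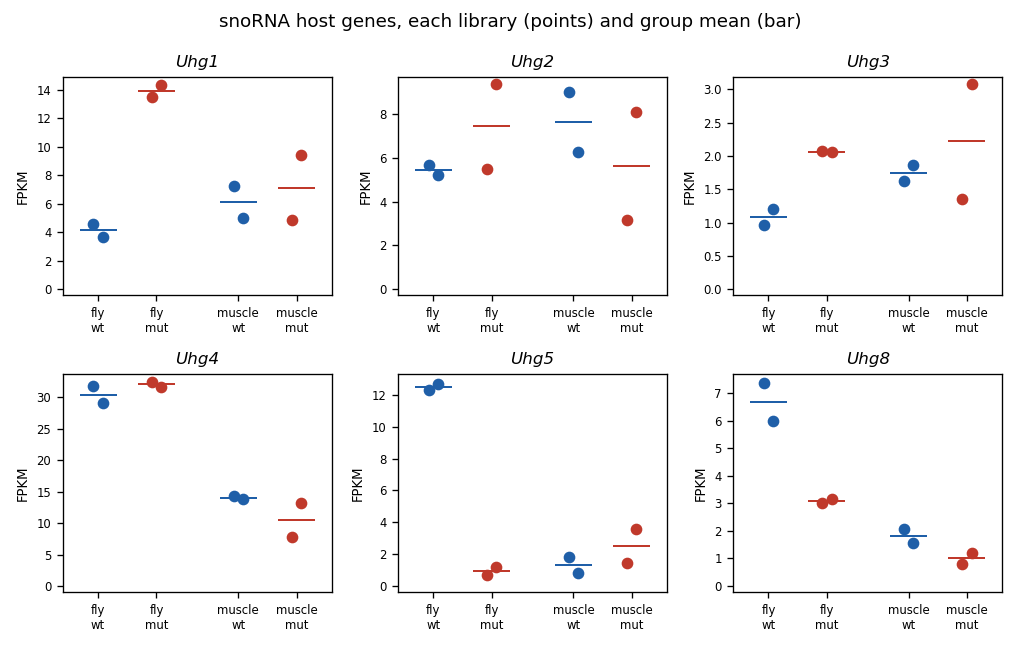
FPKM of the 6 snoRNA host genes in each library (points) with the group mean (bar), for whole flies (fly) and muscle, wildtype (wt, blue) and mutant (mut, red), n = 2 per group. In whole flies Uhg5 and Uhg8 are lower and Uhg1 is higher in mutant, while Uhg4 stays between 29.2 and 32.5.

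Proteins that work with these RNAs were read from lists. Of 7 tested snoRNP proteins, the partners of snoRNAs in RNA modification, 0 were called in whole flies by limma, and the median was 0.33. An unadjusted p under 0.05 was seen for 4 of the 7, against 36.4% of all entries. The methyltransferase gene Fib had 128 and 149 FPKM in wildtype against 217 and 163 in mutant (limma adjusted p = 0.0821). In muscle 0 of 7 were called, 2 had an unadjusted p under 0.05 (against 14.0% of all entries), and the median was -0.37, with all 7 differences negative.

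Of 12 tested proteins of RNase P, RNase MRP and the signal recognition particle, 2 were called higher in whole flies. They were Pop5, a subunit of RNase P, at 0.55 ± 0.14, and Srp68, a subunit of the signal recognition particle, at 0.38 ± 0.10. Of 22 genes of nuclear RNA decay and small RNA processing, Ski6, an exosome subunit, rose by 0.56 ± 0.13 and AGO2, the Argonaute that carries siRNAs, fell by 0.45 ± 0.10 (limma adjusted p = 0.0177). Over all tested entries 20.8% were called and the median was 0.02, and over these lists the medians were 0.13 and 0.11. In muscle both lists had 0 calls by limma, with medians of -0.46 and -0.03. They had 4 and 0 members at an unadjusted p under 0.05, against 14.0% of all muscle entries.

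Among the hairpin RNAs, hpRNA:CR18854 (2L, 9787294 to 9790745) rose in whole flies. It had 77.8 and 79.7 FPKM in wildtype against 137 and 108 in mutant, a difference of 0.62 ± 0.13 (log2, SE, limma adjusted p = 0.016). The call ended without either wildtype library. It shares 39.7% of its exon bases with IP3K1 on the other strand, an inositol trisphosphate kinase gene, which had a difference of -0.40 (limma adjusted p = 0.0875). The other hairpin RNAs were not called: hpRNA:CR33940 had 41.6 and 43.2 FPKM against 54.1 and 29.1, and hpRNA:CR32207 had 26.6 and 34.6 against 51.7 and 29.5. In both, the mutant libraries lay far from each other.

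Hsromega (3R, 21296127 to 21317836), the longest of the 96 at 21710 bases, had opposite signs in the tissues. In muscle it stood at 8.42 and 7.61 FPKM in wildtype against 10.96 and 11.9 in mutant, a difference of 0.47 ± 0.12 (log2, SE, limma adjusted p = 0.303). In whole flies it stood at 5.05 and 4.87 FPKM against 3.88 and 4.04, a difference of -0.27 ± 0.13 (limma adjusted p = 0.195). The groups did not overlap in either tissue, and neither difference was called. Its neighbour aus, 464 bases away, was called lower in whole flies at -0.57 ± 0.13. Of 18 omega speckle proteins, 0 were called by limma in either tissue, with medians of 0.12 in muscle and 0.03 in whole flies. An unadjusted p under 0.05 was seen for 2 and 1 of them, against 14.0% and 36.4% of all entries.

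The sisRNAs and snmRNAs gave few reads. In muscle sisRNA:3, in Csp, a gene of a synaptic vesicle chaperone, had 2 and 12 reads in wildtype against 24 and 17 in mutant, and it was not called (1.21 ± 0.47). In whole flies its groups overlapped, at 2.28 and 2.31 FPKM against 1.5 and 4.19. Another such RNA, sisRNA:CR46364, had differences of 0.18 in muscle and -0.18 in whole flies. For snmRNA:254 and snmRNA:157, 0 to 7 reads per library leave any difference below detection.

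CR46350 (3R, 9283875 to 9284525, 1 exon) was listed with 0 reads in all 4 mutant libraries. Wildtype whole flies had 38 and 29 reads, or 2.96 and 2.13 FPKM, and wildtype muscle had 23 and 25 reads, or 1.65 and 1.87 FPKM. Against a floor of 3 reads per library it was at least 11.2-fold lower in mutant whole flies and at least 7.34-fold lower in mutant muscle. Of the 17824 genes matched between the tables, it was the only one at 0 in all mutants with at least 1 FPKM in all wildtypes. It passed the filter through the wildtypes alone, so it had to differ. The whole-fly difference was called at -1.81 ± 0.20 (limma adjusted p = 0.00103) and the muscle one was not, at -1.46 ± 0.33 (limma adjusted p = 0.287). The nearest coding gene, CG8861, lies 9117 bases away and had differences of -0.02 in muscle and 0.04 in whole flies.

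CR45625 (X, 12912560 to 12913009, 1 exon) showed the reverse in whole flies. It had 0 reads in both wildtypes and 16 and 14 in the mutants, 1.71 and 1.57 FPKM, at least 5.0-fold higher against the same floor. In muscle it was seen in every library, at 1.56 and 2.05 FPKM in wildtype against 1.76 and 2.43 in mutant, and the groups overlapped. The whole-fly difference was 1.40 ± 0.19 (log2, SE, limma adjusted p = 0.00241), for a gene that passed the filter there through the mutants alone.

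Among the uncharacterised genes that rose in whole flies, CR42861 (X, 13744928 to 13745476) led. It had 2.31 and 2.0 FPKM in wildtype against 13.7 and 13.2 in mutant, from 25 and 23 reads against 156 and 143. The difference was 2.19 ± 0.13 (log2, SE, limma adjusted p = 7.78e-05). In muscle all 4 libraries lay between 1.30 and 2.04 FPKM. Pdcd4, the coding gene 101 bases away, had a whole-fly difference of 0.19 (limma adjusted p = 0.287).

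CR43452 (3R, 20678183 to 20679079) had 4.35 and 4.36 FPKM in wildtype whole flies and 21.5 and 17.6 in mutant, a difference of 1.93 ± 0.14 (log2, SE, limma adjusted p = 0.000161). In muscle it had 12.5 and 11.99 FPKM in wildtype against 6.72 and 4.88 in mutant, apart in the other direction but not called (-0.97 ± 0.18, limma adjusted p = 0.274). CG4000, the coding gene 832 bases away, had the same signs, with 1.05 ± 0.11 in whole flies, which was called, and -0.76 ± 0.18 in muscle, which was not.

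CR43461 rose from 0.694 and 2.18 FPKM to 6.71 and 6.11 in whole flies (1.67 ± 0.28, log2, SE, limma adjusted p = 0.00649). CG3168, on its other strand, was called lower at -0.78 ± 0.12. In muscle both had positive differences that were not called, 0.66 for CR43461 and 0.99 for CG3168. CR44741, at 0.131 and 0.493 FPKM against 1.24 and 1.70, was called higher, as was CG10621 153 bases away, at 1.82 ± 0.09. CR44741 passed the filter there through the mutants alone and rested on 1 and 4 reads against 10 and 13, and its call was lost without wildtype library 1, without mutant library 2 and by limma-voom.

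CR44644 and CR44645 overlap each other on opposite strands of 2R, and both were higher in mutant whole flies. CR44644 had 1.21 and 0.857 FPKM against 3.75 and 4.13 (1.28 ± 0.17, limma adjusted p = 0.00231), and CR44645 had 2.24 and 1.498 against 5.22 and 3.31 (0.86 ± 0.22, limma adjusted p = 0.0346). The second call was lost without wildtype library 2, without mutant library 1 and by limma-voom. Since strand may not have been used, the pair may not be 2 separate measurements. CR44756, CR44922 and CR43496 also rose, with differences of 1.26, 1.13 and 0.91. CR44756 passed the filter through the mutants alone.

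Among those that fell, CR44138 (3R, 13376903 to 13377395) went from 6.68 and 5.71 FPKM to 2.25 and 1.64 (-1.29 ± 0.17, log2, SE, limma adjusted p = 0.0021). CG9813, on its other strand, was also called lower, at -0.45 (limma adjusted p = 0.0387). In muscle CR44138 lay between 2.11 and 2.75 FPKM in all 4 libraries. The single-exon gene noe (3L, 17400272 to 17401348) went from 58.7 and 47.9 FPKM to 22.7 and 32.3 (-0.94 ± 0.18, limma adjusted p = 0.0102), while blot, the transporter-like gene that contains it, had a difference of 0.18. In muscle noe had 33.7 and 33.6 FPKM in wildtype against 19.6 and 28.3 in mutant, also lower but not called.

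CR46035, CR45473, CR44225, CR46445, CR43685 and CR44832 were called lower, and each lost the call under at least 1 alternative. CR46035, on the other strand of the chromatin remodelling gene osa, had 3.03 and 2.73 FPKM in wildtype whole flies against 1.1 and 1.07 in mutant (-0.90 ± 0.16), and of the 8 alternatives the fit without wildtype library 1 lost it. CR45473, on the other strand of tyn, had 3.05 and 3.10 FPKM against 1.18 and 1.47. CR44225 had 2.30 and 2.28 FPKM against 0.985 and 0.803, and it passed the filter through the wildtypes alone. CR46445 had 2.62 and 2.35 FPKM against 0.582 and 1.22, and CR43685 had 10.1 and 10.3 against 5.78 and 7.20. The lower values of CR44832 (-0.56 ± 0.12) were apart in muscle too, at 17.4 and 25.7 FPKM against 12.4 and 15.3, without a call there.

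CR44651, CR44761 and CR34335 also rose in whole flies, and each lost the call under at least 1 alternative. CR44651 had 0.872 and 1.30 FPKM in wildtype against 3.93 and 2.47 in mutant (1.0 ± 0.22). CR44761, on the other strand of RYBP, a Polycomb-associated gene, had 2.22 and 1.24 FPKM against 3.37 and 3.63 (0.74 ± 0.20). CR34335, inside DIP-alpha, a gene of a neuronal cell surface protein, had 114.6 and 115.3 FPKM against 142 and 160 (0.39 ± 0.10, limma adjusted p = 0.0376), a call lost in 5 of 8 alternatives. In muscle CR34335 overlapped, at 67.4 and 48.0 FPKM against 30.2 and 52.2.

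The 34 genes called in whole flies formed 35 pairs with a coding gene that overlapped or lay nearest. Obp57a stands in 2 of the pairs, with CR44644 and CR44645. In 27 pairs the coding gene was expressed enough to be tested. In 6 of the 27 pairs the coding gene was called (22.2%, against 20.8% of all entries), 4 in the direction of the noncoding gene and 2 in the other. The opposite cases were CG3168 with CR43461 and pot, a zona pellucida domain gene, with CR32661. The same direction was seen for CG4000, CG9813 and CG10621, described above, and for IP3K2, called lower like CR45018. CR45018 shares 35.8% of its exon bases with IP3K2 on the same strand, and it lost its call when any 1 library was left out.

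**Figure D3:**
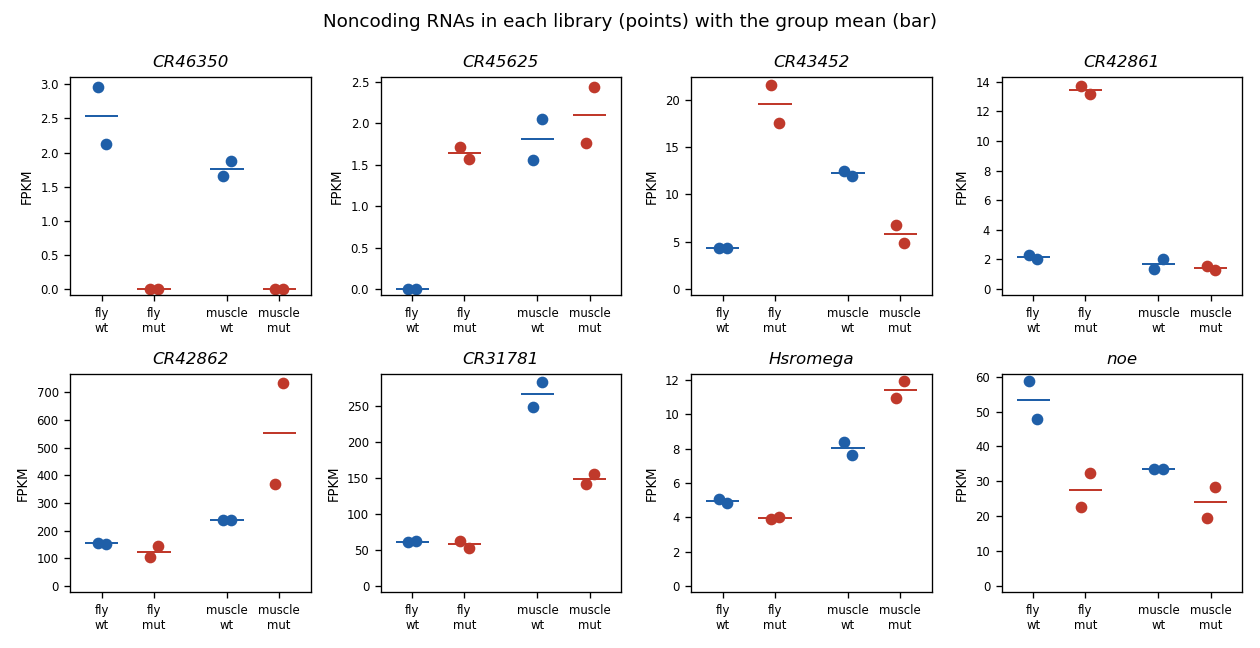
FPKM in each library (points) with the group mean (bar) of 8 noncoding RNAs, for whole flies (fly) and muscle, wildtype (wt, blue) and mutant (mut, red), n = 2 per group. CR46350 is at 0 in all 4 mutant libraries, CR45625 is at 0 in the 2 wildtype whole-fly libraries, and CR43452 is higher in mutant whole flies and lower in mutant muscle.

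The second question was which of the 96 differed in muscle. By limma 0 were called, as were 0 of all 10079 entries (0.0%), with 0 by limma-voom on recovered reads. At an unadjusted p under 0.05 there were 14 of 96 (14.6%), against 14.0% of all entries. The groups did not overlap for 38 of the 96 (39.6%), against 48.9% of all entries. The lowest adjusted p of the 96 was 0.228, for CR43956, a gene of chromosome 4 with 2.56 and 2.42 FPKM in wildtype against 5.41 and 5.995 in mutant (0.94 ± 0.14). With the spread shared over all 8 libraries 4 were called, against 2.64% of 9454 entries: CR43956 higher and CR31781, CR43452 and CR46350 lower. CR46350 passed the filter there through the wildtypes alone.

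The most abundant muscle RNAs moved apart without passing the test. CR31781 had 250 and 283 FPKM in wildtype against 142 and 156 in mutant (-0.83 ± 0.13, log2, SE, limma adjusted p = 0.247), and in whole flies 60.8 and 62.9 against 62.8 and 53.6. CR42862 had 238 and 237 FPKM in wildtype against 370 and 734 in mutant (1.13 ± 0.37, limma adjusted p = 0.347), and the mutants lay far from each other. In whole flies CR42862 had 156 and 152 FPKM against 104 and 144, lower in both mutants.

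Further muscle genes with the largest differences among those whose groups lay apart had low levels. CR44833 had 1.89 and 1.09 FPKM in wildtype against 0.222 and 0 in mutant (-1.15 ± 0.39), CR44775 had 2.38 and 3.92 against 1.46 and 0.893 (-0.92 ± 0.30), and CR44993 had 0.726 and 0.755 against 1.75 and 2.55 (0.84 ± 0.26). CR44833 and CR44993 passed the filter in muscle through 1 genotype only. CR45517 (0.68 ± 0.17) and CR45585 (0.67 ± 0.32) were higher in both mutants, again not called.

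The muscle libraries differed in RNA of other tissues, with 0 markers of any list called by limma. Testis markers summed to 185 and 64.6 FPKM in wildtype against 543 and 21.7 in mutant, with 2, 1, 1 and 6 of the 16 markers at 0 in that order. Male accessory gland markers summed to 50.3 and 13.9 FPKM against 71.7 and 2.72, and ovary and eggshell markers to 570 and 157 against 5.56 and 40.4. Gut markers summed to 19580 and 22950 FPKM against 11950 and 10150, Malpighian tubule markers to 19.8 and 29.1 against 54.1 and 65.6, and yolk and female fat body markers to 26500 and 14270 against 8337 and 19440. Muscle markers lay between 17020 and 22060 FPKM, with none of 18 at 0 in any library.

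A set of the noncoding RNAs had the same order over libraries as the testis markers. The male accessory gland markers had it too. That order, highest in mutant 1, then wildtype 1, wildtype 2 and mutant 2, was shared by 19 of the 96 (9.97% of all tested muscle entries had it). Of these, 13 were at least 20-fold lower in mutant 2 than in mutant 1 (6.42% of tested entries), with values under 0.05 FPKM set to 0.05. This set was picked after its values were seen, so no test was made. It comprises CR32652, CR32657, CR32658, CR32661, CR32690, CR42657, CR42767, CR42850, CR43157, CR44389, CR44455, CR45808 and CR9284, and 8 of the 13 lie on the X chromosome.

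CR9284 (2R, 21803402 to 21804338) had 14.6 and 2.85 FPKM in wildtype muscle and 48.1 and 0.0616 in mutant, or 277, 52, 866 and 1 reads. CR32658 had 10.4 and 4.48 FPKM in wildtype against 33.0 and 0.131 in mutant. The 2 mutants thus bracketed both wildtypes, and the standard errors of these genes were 2.12 and 1.81 on the log2 scale. Over all 96, 26 genes lay under 1 FPKM in muscle mutant 2, against 8 in mutant 1.

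In whole flies 5 of the 13 were called lower and CR44389 higher, beside 10.8% lower and 9.94% higher over all entries tested. CR9284 had 62.6 and 65.3 FPKM in wildtype against 25.9 and 31.2 in mutant (-1.14 ± 0.12, limma adjusted p = 0.000787), CR32661 had 29.1 and 31.2 against 12.7 and 17.7, and CR32658 had 55.7 and 58.1 against 36.5 and 37.3. CR42657 and CR32690 were the others. The calls of CR32658, CR32690, CR42657 and CR44389 each ended without at least 1 library. CR32652, at 18.8 and 20.1 FPKM against 19.7 and 25.6, and CR44455, at 19.6 and 28.5 against 25.5 and 21.2, were not called. The lower sum of testis markers in mutant whole flies stands beside these values, and its part in them was not tested.

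**Figure D4:**
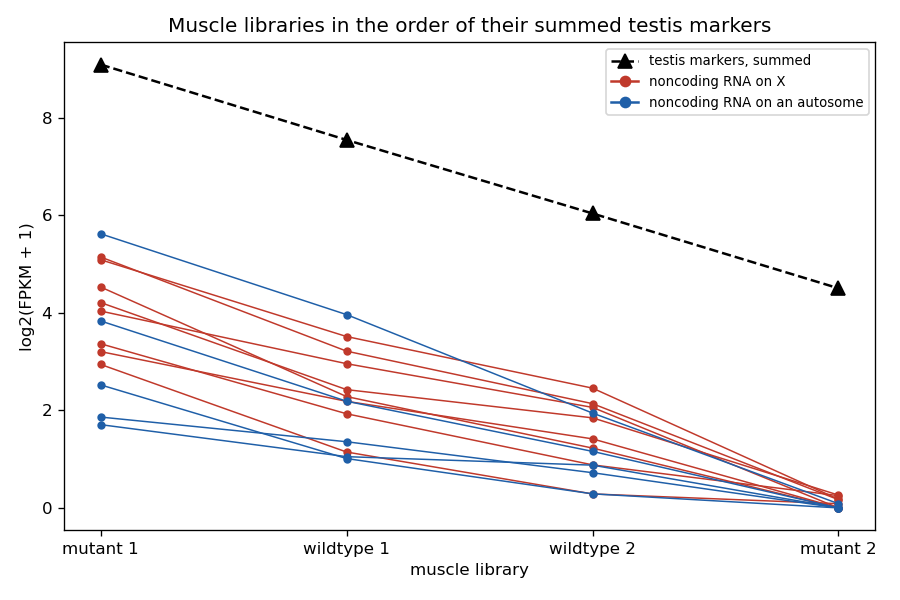
Level on the log2(FPKM + 1) scale of 13 noncoding RNAs (circles, red on X and blue on autosomes) and of the summed testis markers (black triangles) in the 4 muscle libraries, ordered by the marker sum. The 13 RNAs were picked for having this order and for being at least 20-fold lower in mutant 2 than in mutant 1. In mutant 2 the markers sum to 21.7 FPKM and the 13 RNAs lie under 0.2 FPKM.

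The third question was whether the genotype difference depended on the tissue. In a limma fit over all 8 libraries, 9 of the 96 had a called interaction (9.38%, against 5.83% of 9454 entries). An unadjusted p under 0.05 was seen for 29 (30.2%, against 27.2% of all entries). The 9 called were CR43452, CR42861, Uhg5, CR44644, CR45625, CR44138, CR45473, CR44225 and Hsromega. The muscle difference minus the whole-fly difference was -2.91 ± 0.23 for CR43452 (log2, SE, limma adjusted p = 0.00732) and 3.37 ± 0.49 for Uhg5 (limma adjusted p = 0.0226). Hsromega lay just under the threshold (0.73 ± 0.15, limma adjusted p = 0.0493).

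None of the 9 kept its call under all 13 alternatives tried for it. With a replicate block 0 of the 96 were called, against 16 of 9454 entries, though the labels do not say that repeat numbers pair the samples. The count was 5 under median centring and 4 under quantile scaling, against 428 and 422 of 9454 entries. Without a filter it was 5, against 522 of 14671 entries. It rose without either muscle mutant library and fell without any other 1 library. The count over all entries moved in the same way.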

How the data were processed

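RNA sequencing was done on 8 libraries, 2 each of wildtype and mutant adult muscle and whole flies. The authors deposited 1 table of FPKM values per tissue, per the file headers; what aligned and counted the reads, and whether by strand, is not given in the sources used here. A mouse build, mm10, stands in the submitters' processing notes, while the tables hold fly genes with release 6 coordinates. Columns of 1 table show genotype and repeat without a tissue; they were taken as whole fly since the other table's columns name muscle and cover all muscle samples.

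FPKM times gene length gave whole reads for 100% of values above 0 (tolerance 0.1 reads), and these reads were used for limma-voom and for floors of 3 reads, which cover counting error only. A read in a gene of 1000 bases was worth 0.0494 FPKM in muscle mutant 1, with 18580751 reads. In muscle mutant 2, with 20655630 reads, it was worth 0.0548 FPKM, so the scaling was not by assigned reads alone. Of the 96 genes, 89 matched between tables by symbol and all by position. Overlaps came from an Ensembl annotation whose coordinates equal those of the muscle table for 23830 of 23851 entries.

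Differences were tested with limma 3.58.1 (R 4.3.3, moderated with a trend) on log2(FPKM + 1), which understates changes of low genes. Entries needed 1 FPKM in 2 of a tissue's 4 libraries, each tissue was fitted alone, and p-values were Benjamini-Hochberg adjusted over all entries. The interaction used genes passing in both tissues. The fit was tested on simulated data. Leaving a library out kept the tested entries, and the lone library was assumed to vary like the others.

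The genes and lists were chosen with earlier results of these data known. Named were genes with a name other than a CR number, the 6 most abundant and the 5 largest rises and falls with groups apart per tissue, every called gene, the 5 smallest interaction p-values, genes at the FPKM threshold, and coding genes they overlap. Nearest coding genes were added after their values were seen. The markers of each cell type, and a list of bithorax genes (Ubx, abd-A, Abd-B and Antp, 2 tested, 0 called by limma in either tissue, 0 at an unadjusted p under 0.05, medians 0.20 in muscle and -0.13 in whole flies), were fixed with them. Alternatives were another pseudocount, filter, scaling, tool, spread, replicate block and left-out library.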

Additional observations from a re-analysis of the deposited data

Results flagged for a closer look

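The genotype difference (mutant minus wildtype, log2) was called as differing between tissues for 9 genes by the limma interaction term. Values are the muscle difference minus the whole-fly difference. CR43452 had -2.91 and CR42861 had -2.35, both with a rise in whole flies that muscle did not share. CR44644 had -1.41 and CR45625 had -1.26, again with the called rise in whole flies. Uhg5 had 3.37, with the fall in whole flies. CR44138 had 1.15, CR45473 had 1.08 and CR44225 had 1.06, each called lower in whole flies. The calls of CR45473 and CR44225 ended without either wildtype library, and CR44225 passed the filter there through the wildtypes alone and in muscle through the mutants alone, which favours a difference between tissues. CR45625 passed in whole flies through the mutants alone. Hsromega had 0.73, with neither tissue called alone. None of the 9 kept its interaction call under all 13 alternatives.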

How the results depend on the processing

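In muscle the 0 calls among the 96 genes held under every alternative except a spread shared over 8 libraries, which gave 4. Leaving out any 1 library gave 0. In whole flies 34 of the 96 genes were called, beside 2372 of all 11419 entries. The 34 calls became 19 at a minimum of 5 FPKM (43 genes tested), beside 2063 of 8561 entries. They became 15 with the shared spread, beside 544 of 9454 entries, and 19 among the 47 genes that overlap no coding gene. Fewer genes of the 96 are tested at 5 FPKM and among the 47. Leaving out 1 library gave 21 to 36. Over all entries, 551 of 9454 had a called interaction. The 9 interaction calls among the 96 became 5 under median centring (428 of 9454 entries) and 5 without a filter (522 of 14671). They became 4 under quantile scaling (422 of 9454) and 0 with a replicate block (16 of 9454). With that block 25 of the 96 had an unadjusted p under 0.05. Leaving out 1 library gave 0 to 33. The cause was not tested. The muscle difference of CR43685 changed sign to -0.06 under quantile scaling. The labels do not say that libraries of the same repeat number belong together. Deviations of same-numbered libraries correlated at 0.389 in muscle and -0.149 in whole flies. A replicate block called 0 genes in muscle and 42 in whole flies, and a crossed block, added after seeing the data, called 40. With 2 libraries per group, genes of under 20 reads cannot show small differences.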
